A study of Mus musculus with 4 samples.

Results

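Hair follicle stem cells carry receptors for the IL-6 family of cytokines, and 10 genes of that signalling axis are described here, out of 24084 gene rows measured by RNA sequencing. They are 4 receptor chains (Osmr, Il6st, Lifr and Il6ra), 2 Janus kinases (Jak1 and Jak2), the transcription factor Stat3, its feedback inhibitor Socs3, and 2 C/EBP transcription factors that act downstream (Cebpb and Cebpd). The genes were named by symbol and were chosen by their CPM (gene counts relative to a TMM-scaled library size) in Foxp3-DTR against WT, with results of this comparison known. Their fold changes are therefore a description, given with no p-value.

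The Foxp3-DTR group comprised 2 libraries (replicates C and D) from C57BL/6 mice in which Foxp3-expressing regulatory T cells carry the diphtheria toxin receptor and were labelled as depleted. The WT group comprised 2 libraries (replicates A and C) from C57BL/6 mice labelled as keeping these cells. Both groups received diphtheria toxin intraperitoneally at 15 ng/g, were aged 7 to 10 weeks, and were sampled from skin epidermis 4 days after depilation, the removal of hair shafts that starts a new growth phase. The labels give neither the gate used for sorting nor whether each library came from 1 animal, so the spread between libraries may be technical. The comparison asks how the stem cells differ when regulatory T cells are missing.

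IL-6 family cytokines share the signal-transducing chain gp130, encoded by Il6st. Oncostatin M binds gp130 with Osmr, leukaemia inhibitory factor binds gp130 with Lifr, and IL-6 first binds Il6ra. The paired chains activate the Janus kinases bound to them, which phosphorylate STAT3. STAT3 then enters the nucleus and induces Socs3, whose protein blocks further signalling at gp130, together with acute phase regulators such as the C/EBP factors. In mouse skin, oncostatin M from macrophages has been reported to keep hair follicle stem cells quiescent through JAK-STAT signalling.

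Gene counts per library ranged from 13911765 to 15923154. The labelled cell type was checked on 11 bulge stem cell markers, all with counts in all 4 libraries. They summed to 48600 and 51900 CPM in Foxp3-DTR, and to 37800 and 43600 CPM in WT, but without Postn to 27300 and 31700 CPM in Foxp3-DTR and to 33100 and 34000 CPM in WT. Single markers lay in both directions without overlap, Postn, Cd34 and Itga6 higher in Foxp3-DTR and Lhx2, Nfatc1, Sox9 and Krt5 lower, and of these 7 none passed an edgeR adjusted p of 0.05. Markers of immune cells were near 0: T cell markers summed to 0.928 and 0.354 CPM in Foxp3-DTR, and to 5.56 and 0.0615 CPM in WT, and 12 myeloid markers to 7.16 and 11.5 CPM in Foxp3-DTR, and 10.8 and 5.47 CPM in WT. Fibroblast markers summed to 27.9 and 31.8 CPM in Foxp3-DTR and 40.0 and 53.4 CPM in WT, most of it Col1a2, while Col3a1, Lum and Dpt had at most 1 count in any library. Melanocyte markers summed to 116 and 137 CPM in Foxp3-DTR and 95.5 and 140 CPM in WT, most of it Mitf. Pmel (6.0 and 8.4 CPM in Foxp3-DTR, 2.8 and 2.3 CPM in WT), Tyrp1 and the sparse Mlana were higher in Foxp3-DTR without overlap. Mitf and Dct overlapped, and of the 4 melanocyte markers tested 0 passed an edgeR adjusted p of 0.05. Foxp3 had 0 counts in all 4 libraries, so it does not check the depletion. Krt10, a keratin of suprabasal epidermis, parted the replicates of each group, with 458 CPM (C) and 3796 CPM (D) in Foxp3-DTR, and 4562 CPM (A) and 249 CPM (C) in WT. The part of this difference in the values below was not tested. Xist, transcribed in female cells, stood at 1.86 and 0 CPM in Foxp3-DTR and at 861 and 2482 CPM in WT. The 4 Y-linked genes Ddx3y, Eif2s3y, Kdm5d and Uty together stood at 319 and 260 CPM in Foxp3-DTR and had 0 counts in both WT libraries. By these genes, group cannot be told apart from sex, nor from a code in the titles (DEP3 in Foxp3-DTR, DEP2 in WT). All 10 genes of the axis are autosomal.

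The promoter of Socs3 is shown because it is the 1 window of the axis that held a STAT motif. The motif searched was TTCNNNGAA, which reads the same on both strands, in the 250 bases before each RefSeq transcription start (build GRCm38.p6). Of the 10 axis genes 9 had an entry, with 10 windows in all, and Cebpd had none. The Socs3 window lies at chr11:117969367-117969616 on the minus strand, and capitals mark the motif, which spans 154 to 146 bases before the RefSeq start. In the GENCODE M21 annotation Socs3 spans chr11:117966079-117970047, so the window and its motif lie inside that annotated gene.

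Socs3: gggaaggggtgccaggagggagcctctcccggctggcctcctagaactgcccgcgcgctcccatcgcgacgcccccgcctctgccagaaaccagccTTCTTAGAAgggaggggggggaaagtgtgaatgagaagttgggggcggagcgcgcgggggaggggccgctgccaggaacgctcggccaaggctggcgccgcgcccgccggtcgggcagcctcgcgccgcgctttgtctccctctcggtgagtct

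The other genes of the wider pathway, described with their values below, that held the same motif number 4, and a stretch around it is shown for each to compare the letters. These are Icam1, an adhesion molecule for leukocytes (chr9:21015898-21015906, plus strand, 42 to 34 bases before the start), Zfp36, which destabilises cytokine mRNAs (chr7:28379237-28379245, minus strand, 17 to 9 bases before), Steap4, a metalloreductase (chr5:7960356-7960364, plus strand, 116 to 108 bases before), and Il31ra, the receptor chain for IL-31 (chr13:112580845-112580853, minus strand, 191 to 183 bases before). Icam1 and Steap4 carried the same 9 letters at the motif.
Icam1: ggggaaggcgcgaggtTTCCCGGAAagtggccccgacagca
Zfp36: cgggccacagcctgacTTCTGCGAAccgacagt
Steap4: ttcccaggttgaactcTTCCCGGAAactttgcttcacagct
Il31ra: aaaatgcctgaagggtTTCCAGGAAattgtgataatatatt

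Such a match is common. It was present in 7.02% of all 32851 promoter windows and in 6.01% of windows of genes tested for a difference. Of the wider pathway, 52 of 72 genes had an entry, and 4 of their 67 windows held the motif (5.97%). Of the axis, 1 of 10 windows held it. A C/EBP motif, TTGCNNAA on either strand, was found in 0 of the 10 windows, against 9.56% of all windows, and in Steap4 it lay apart from the STAT motif. A match is a string of letters and not a bound site, and a window without one says nothing about the factor.

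The receptor chains for oncostatin M stood at higher levels in Foxp3-DTR. Where CPM values are given in pairs, Foxp3-DTR is in the order C and D and WT in the order A and C, and gene coordinates are on mm10. Osmr, the oncostatin M receptor (chr15:6813577-6874969, minus strand), was at 360 CPM (C) and 272 CPM (D) in Foxp3-DTR, against 54.4 CPM (A) and 92.3 CPM (C) in WT. Both Foxp3-DTR libraries lay above both WT libraries, the lower of them 2.94-fold above the higher WT library, and the log2 fold change was 2.11 ± 0.30 (SE, n = 2 libraries per group). Il6st, which encodes the shared chain gp130 (chr13:112464070-112510086, plus strand), was at 241 and 164 CPM in Foxp3-DTR and at 48.7 and 73.6 CPM in WT. Its groups did not overlap either, and its log2 fold change was 1.73 ± 0.29. In both groups replicate C was the higher library for Osmr and for Il6st.

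Lifr, the chain for leukaemia inhibitory factor (chr15:7090614-7197489, plus strand), separated the groups by a narrow margin. Its levels were 153 CPM (C) and 95.1 CPM (D) in Foxp3-DTR, and 57.4 CPM (A) and 93.4 CPM (C) in WT. The lower Foxp3-DTR library was 1.02-fold the higher WT library, less than the spread inside either group, and the log2 fold change was 0.72 ± 0.32. Il6ra, which binds IL-6 itself (chr3:89864059-89913196, minus strand), had the fewest counts of the axis. In Foxp3-DTR it had 87 counts or 5.77 CPM (C) and 269 counts or 19.1 CPM (D), and in WT 143 counts or 10.1 CPM (A) and 32 counts or 1.97 CPM (C). The groups overlapped, and the log2 fold change was 1.05 ± 0.91, or -0.05 without Foxp3-DTR D and 2.67 without WT A. The libraries high in Il6ra, Foxp3-DTR D and WT A, are also the ones high in the suprabasal keratin Krt10.

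The Janus kinases had the smallest differences between the groups. Jak1, a kinase bound to gp130 (chr4:101152367-101265282, minus strand), was at 239 and 215 CPM in Foxp3-DTR and at 210 and 221 CPM in WT, a log2 fold change of 0.08 ± 0.17. The libraries of the groups interleaved, and 2 of the 4 lay between the extremes of 210 and 239 CPM. Jak2, which gp130 receptors also engage (chr19:29251828-29313080, plus strand), was at 119 and 92.8 CPM in Foxp3-DTR and at 73.1 and 86.9 CPM in WT, with a log2 fold change of 0.40 ± 0.21. Its groups did not overlap, but the lower Foxp3-DTR library was 1.07-fold the higher WT library.

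Stat3 and its feedback inhibitor were both higher in Foxp3-DTR. Stat3, the factor that carries the signal to the nucleus (chr11:100885098-100939540, minus strand), was at 737 CPM (C) and 563 CPM (D) in Foxp3-DTR, against 226 CPM (A) and 239 CPM (C) in WT. The WT libraries lay close together, and the lower Foxp3-DTR library stood 2.35-fold above the higher of them, with a log2 fold change of 1.48 ± 0.21. Socs3, the inhibitor (chr11:117966079-117970047, minus strand), was at 194 and 176 CPM in Foxp3-DTR and at 27.1 and 30.1 CPM in WT. This was one of the tightest patterns of the axis, with a mean of 185 ± 12.1 CPM in Foxp3-DTR and of 28.6 ± 2.1 CPM in WT (SD, n = 2 each), and a log2 fold change of 2.69 ± 0.19.

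Of the C/EBP pair, Cebpd had the larger fold change. Cebpd, an acute phase transcription factor (chr16:15887286-15891031, plus strand), was at 175 CPM (C) and 144 CPM (D) in Foxp3-DTR, against 9.64 CPM (A) and 13.2 CPM (C) in WT. The lower Foxp3-DTR library was 10.9-fold above the higher WT library, the widest gap among the 10 genes, and the log2 fold change was 3.80 ± 0.25. Cebpb, a factor that mediates induction of acute phase genes by IL-6 (chr2:167688915-167690418, plus strand), was at 51.9 and 39.8 CPM in Foxp3-DTR and at 39.0 and 25.0 CPM in WT. Foxp3-DTR D and WT A were 1.02-fold apart, and the log2 fold change was 0.52 ± 0.29.

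**Figure D1:**
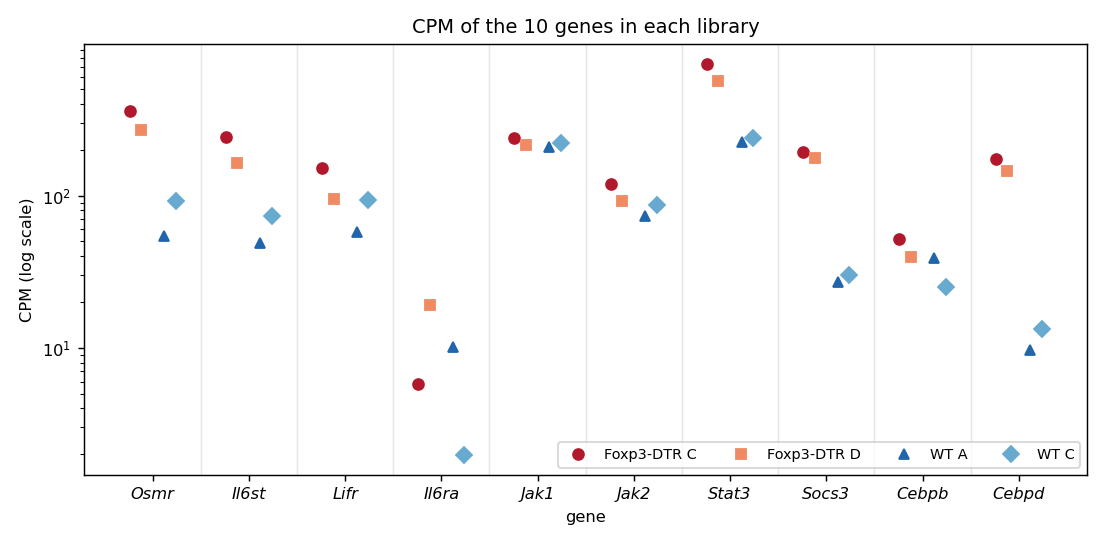
CPM of the 10 axis genes (log axis) in each of the 4 libraries, Foxp3-DTR C and D left of WT A and C within each gene. Osmr, Il6st, Stat3, Socs3 and Cebpd show 2 separate pairs of points, with Cebpd at 144 to 175 CPM in Foxp3-DTR and 9.64 to 13.2 CPM in WT, whereas Il6ra and Jak1 overlap.

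Neighbouring genes could alter the counts of some members in either direction, since the counter's strand setting is not given in the sources used here. In the GENCODE M21 annotation, exons of Spidr on the other strand cover 15.0% of the exon bases of Cebpd, and Tmem189 covers 20.7% of those of Cebpb. Spidr, a DNA repair gene, was at 70.5 and 67.7 CPM in Foxp3-DTR and 44.1 and 44.0 CPM in WT. Tmem189 was at 16.9 and 19.4 CPM in Foxp3-DTR and 24.4 and 15.8 CPM in WT. For Stat3 the overlap, with Stat5a, was 0.756% of exon bases, and Osmr, Il6st, Lifr, Jak2 and Socs3 had none.

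In edgeR's quasi-likelihood test over 12920 genes, 4 of the 10 members passed an adjusted p of 0.05 and were higher in Foxp3-DTR: Osmr, Stat3, Socs3 and Cebpd. In the same direction 0.820% of all genes tested passed, and 0 members were lower, against 0.426% of all genes tested. The groups did not overlap for 8 members, all higher in Foxp3-DTR, where 22.0% of all genes tested were higher and 23.7% lower without overlap. The median log2 fold change was 1.26 over the members and -0.014 over all genes tested. Since the members were chosen on this contrast, nothing is read from these counts, nor from which members passed in this or other fits. Without Foxp3-DTR C only Socs3 and Cebpd of the 10 passed, and the log2 fold changes of Osmr and Stat3 were then 1.89 and 1.28. Il6st missed the threshold in this fit and passed in 5 of 8 alternative fits.

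Divided by exon length, the members changed places between the groups. In Foxp3-DTR the order of mean level in CPM per kb of exon was Stat3 (68.3), Socs3 (64.0), Cebpd (42.6), Jak1 (31.4), Cebpb (30.5), Osmr (26.1), Jak2 (21.0), Il6st (18.2), Lifr (11.5) and Il6ra (1.44). In WT it was Jak1 (29.8), Stat3 (24.4), Cebpb (21.3), Jak2 (15.9), Socs3 (9.89), Lifr (6.99), Osmr (6.05), Il6st (5.51), Cebpd (3.05) and Il6ra (0.696). The neighbours Stat3 and Socs3 overlapped between libraries in Foxp3-DTR, as did the run from Jak1 through Cebpb, Osmr and Jak2 to Il6st. In WT, Stat3, Cebpb and Jak2 overlapped in turn, and so did Lifr, Osmr and Il6st. Cebpd was the third of the 10 in Foxp3-DTR and the ninth in WT. Exon length here is the union of all annotated exons, which understates the level of a gene whose longer isoforms are not made.

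Ratios within a library do not depend on its depth. Osmr over Lifr, in CPM per kb, was 2.1 and 2.54 in Foxp3-DTR and 0.843 and 0.880 in WT, so Osmr was the more abundant chain in both Foxp3-DTR libraries and the less abundant in both WT libraries. Osmr over Il6st was 1.37 and 1.52 in Foxp3-DTR and 1.02 and 1.15 in WT. Socs3 over Stat3, the inhibitor set against the factor that induces it, was 0.865 and 1.03 in Foxp3-DTR and 0.395 and 0.414 in WT. The ratio of Cebpd to Cebpb was 1.35 and 1.46 in Foxp3-DTR and 0.0993 and 0.213 in WT.

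Socs3 and Cebpd took larger shares of their families in Foxp3-DTR libraries than in WT libraries. Socs3 made up 51.1% and 53.9% of the summed level per kb of 8 SOCS family genes in Foxp3-DTR, and 25.7% and 25.6% in WT. Cebpd made up 31.6% and 29.0% of 5 C/EBP genes in Foxp3-DTR, and 1.97% and 4.4% in WT. Jak1 was the leading Janus kinase in every library, with 47.7% and 52.2% of 4 kinases in Foxp3-DTR and 58.2% and 52.5% in WT. All 4 libraries had a receptor pool led by Il31ra, the chain that pairs with Osmr to bind IL-31.

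**Figure D2:**
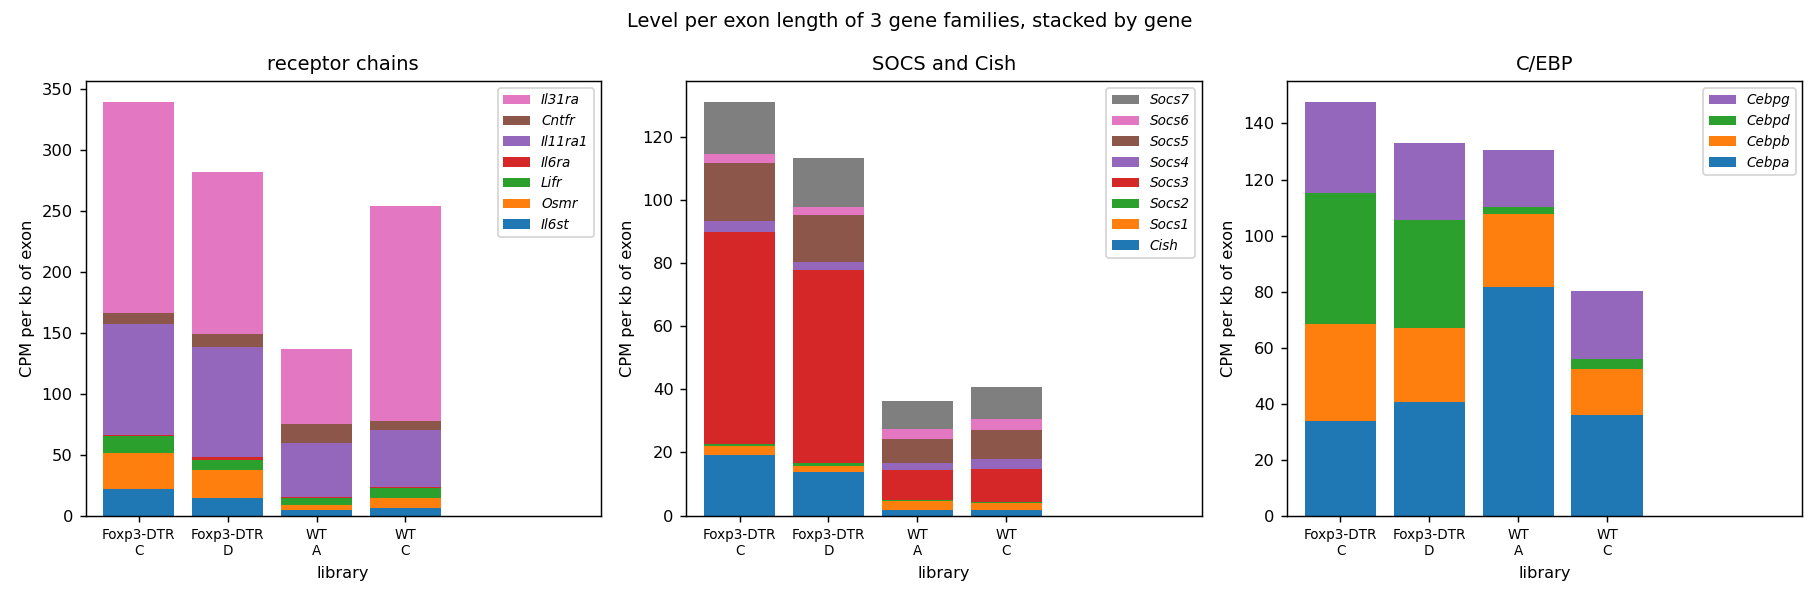
Level per exon length (CPM per kb) of the receptor chains, SOCS and C/EBP genes, stacked by gene, in Foxp3-DTR C and D and WT A and C. Socs3 is the largest block of the SOCS bar in every library, at 51.1% and 53.9% in Foxp3-DTR and 25.7% and 25.6% in WT. Cebpd is nearly missing from the C/EBP bar of WT (1.97% and 4.4%).

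The cytokines themselves were scarce in these cells. Il6, Osm, Ctf2, Il27 and Il31 had 0 counts in all 4 libraries, and a count of 0 allows at most 0.185 to 0.213 CPM in a library (3 counts, counting error only). Of 12 ligand genes 4 had enough counts for the test, and 0 passed in either direction in edgeR's test, with 0 higher and 1 lower at an unadjusted p under 0.05, where 6.76% of all genes tested were higher and 7.89% lower. Among the ligands DESeq2 called 0 higher and 1 lower, where it called 3.59% of all genes it tested higher and 3.77% lower, and limma-voom called 0. Ctf1, cardiotrophin, was at 11.9 and 16.7 CPM in Foxp3-DTR and 17.5 and 20.2 CPM in WT (edgeR adjusted p = 0.637). Lif was not tested, with 19 and 4 counts in Foxp3-DTR and 8 and 6 counts in WT.

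Other receptor chains of the family gave 0 calls among the 3 tested of 5 in edgeR's test. At an unadjusted p under 0.05, 1 was higher, where 6.76% of all genes tested were. That gene was Il11ra1, the IL-11 receptor, at 405 and 404 CPM in Foxp3-DTR and 196 and 211 CPM in WT. Its groups were wide apart for their spread (0.99 ± 0.17 in log2), yet the edgeR adjusted p was 0.055. DESeq2 called this chain alone (adjusted p = 3.6e-06) and limma-voom called 0. Il31ra was at 986 and 758 CPM in Foxp3-DTR and at 347 and 998 CPM in WT, so the groups overlapped and WT A alone was low (edgeR adjusted p = 0.825). Without WT A its log2 fold change was -0.18 and without WT C 1.33, where it passed (edgeR adjusted p = 0.0493). WT A is also the library highest in Krt10 and in sebaceous gland markers (1740 CPM summed, against 231 to 368 CPM in the other 3), and their part in these values was not tested.

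Among the other kinases and STAT genes, 0 of 7 tested passed in edgeR's test. At an unadjusted p under 0.05, 3 were higher, where 6.76% of all genes tested were. DESeq2 called 3, among them Stat2 and Stat5a, and limma-voom 0. Stat6 was at 189 and 166 CPM in Foxp3-DTR and 128 and 148 CPM in WT (edgeR adjusted p = 0.453). Stat2 and Stat5a were picked with their values in view. Stat2, which acts in interferon signalling, was at 162 and 65.2 CPM in Foxp3-DTR and 15.5 and 26.7 CPM in WT (edgeR adjusted p = 0.11). Stat5a was at 103 and 63.0 CPM in Foxp3-DTR and 36.5 and 33.0 CPM in WT (edgeR adjusted p = 0.0826).

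Of 15 other SOCS genes and inhibitors 1 was higher and 0 were lower in edgeR's test (0.820% and 0.426% of all genes tested). At an unadjusted p under 0.05, 5 were higher and 1 lower, against 6.76% and 7.89% of all genes tested. DESeq2 called 3 higher (Cish, Socs5 and Socs7) and 0 lower. The gene that rose was Cish, a SOCS family inhibitor induced by STAT5 (123 and 89.0 CPM in Foxp3-DTR, 12.3 and 11.2 CPM in WT). Its groups were far apart, with a log2 fold change of 3.18 ± 0.24 and an edgeR adjusted p of 0.00503, and it passed in all 8 alternative fits. Socs1, the nearest relative of Socs3 in its mode of action and chosen after its values were seen, was at 8.49 and 5.81 CPM in Foxp3-DTR and 7.96 and 6.40 CPM in WT. The phosphatases Ptpn11, which binds gp130, and Ptpn1 had the highest mean CPM of the list. They had log2 fold changes of 0.19 ± 0.17 and 0.68 ± 0.21 and edgeR adjusted p of 0.699 and 0.188.

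Among 4 tested of 5 other C/EBP genes 0 passed in edgeR's test, and 0 had an unadjusted p under 0.05. DESeq2 and limma-voom also called 0. Cebpg was at 184 and 155 CPM in Foxp3-DTR and 115 and 136 CPM in WT (edgeR adjusted p = 0.379). Cebpa, a regulator of epidermal differentiation, was at 89.4 and 107 CPM in Foxp3-DTR and at 215 and 94.5 CPM in WT, where WT A was high. Its log2 fold change of -0.66 ± 0.39 (edgeR adjusted p = 0.548) became 0.07 without WT A and -1.13 without WT C, where it passed (edgeR adjusted p = 0.0457).

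Some genes known as targets of STAT3 or the C/EBP factors were higher in Foxp3-DTR. Of 27 listed, 21 were tested, 8 rose and 0 fell in edgeR's test, with a median log2 fold change of 1.03, against 0.820% of all genes tested that rose and a median of -0.014. The list was drawn up with earlier results of these data known, so nothing is read from these counts, and several of its genes are also targets of NF-kappaB. Icam1 was at 335 and 224 CPM in Foxp3-DTR and 19.6 and 25.2 CPM in WT, and its groups were 3.64 ± 0.28 apart in log2 (edgeR adjusted p = 0.00503). Ier3, an immediate early gene, was at 230 and 174 CPM in Foxp3-DTR and 43.2 and 45.0 CPM in WT (2.20 ± 0.21, edgeR adjusted p = 0.0108). Junb, an AP-1 subunit, was at 282 and 221 CPM in Foxp3-DTR and 70.4 and 72.8 CPM in WT (1.81 ± 0.20, edgeR adjusted p = 0.0174). These 3 passed in all 8 alternative fits.

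The other target genes that rose depended more on single libraries or on few counts. Myc, a growth regulator, was at 251 and 173 CPM in Foxp3-DTR and 52.5 and 64.7 CPM in WT (1.86 ± 0.24, edgeR adjusted p = 0.0323), and its adjusted p was 0.0512 without Foxp3-DTR C. Zfp36 was at 107 and 91.4 CPM in Foxp3-DTR and 44.1 and 42.0 CPM in WT (1.21 ± 0.19, edgeR adjusted p = 0.0444), and did not pass without Foxp3-DTR C (0.188), without WT C (0.0518) or in limma-voom (0.0577). Lcn2, which binds bacterial siderophores, had 391 and 308 counts in Foxp3-DTR and 0 and 5 counts in WT, and its fitted log2 fold change of 7.13 ± 0.83 rests on those 5 counts (edgeR adjusted p = 0.0231). It did not pass without Foxp3-DTR C (0.0512) or in limma-voom (0.0626). Bcl3 and Il4ra, outside the naming rule, were the remaining genes that rose. Bcl3 had 819 and 460 counts in Foxp3-DTR and 8 and 0 counts in WT (edgeR adjusted p = 0.0486). It did not pass with no filter on low counts, in limma-voom, without Foxp3-DTR C or without Foxp3-DTR D. Il4ra, the IL-4 receptor, was at 163 and 94.9 CPM in Foxp3-DTR and 19.7 and 10.2 CPM in WT (edgeR adjusted p = 0.0444). Without WT C it did not pass.

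Listed targets with other patterns included the 2 with the highest mean CPM and 3 that stood lower. Steap4 was at 1280 and 907 CPM in Foxp3-DTR and 484 and 586 CPM in WT, with non-overlapping groups, a log2 fold change of 1.03 ± 0.24 and an edgeR adjusted p of 0.0999. Mcl1, a survival factor, was at 388 and 410 CPM in Foxp3-DTR and 247 and 329 CPM in WT (edgeR adjusted p = 0.38). Those 3, selected with their values in view, were lower in Foxp3-DTR without overlap and did not pass in edgeR's test, whereas DESeq2 called them. Ccnd1, which drives entry into the cell cycle, was at 82.4 and 192 CPM in Foxp3-DTR and 487 and 357 CPM in WT (edgeR adjusted p = 0.157). Birc5, a mitotic gene, was at 15.5 and 16.7 CPM in Foxp3-DTR and 67.4 and 38.1 CPM in WT (edgeR adjusted p = 0.0604). Hif1a, the hypoxia factor, was at 221 and 215 CPM in Foxp3-DTR and 403 and 410 CPM in WT (edgeR adjusted p = 0.0676). Of the acute phase genes listed, 4 had few counts or none. Lbp, which binds bacterial lipopolysaccharide, had 17 and 15 counts in Foxp3-DTR and 3 and 6 counts in WT (edgeR adjusted p = 0.488). Lrg1 had 0 counts in all libraries, Hp had 3 counts in WT C alone, and Saa3 had 8 counts in Foxp3-DTR D alone.

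**Figure D3:**
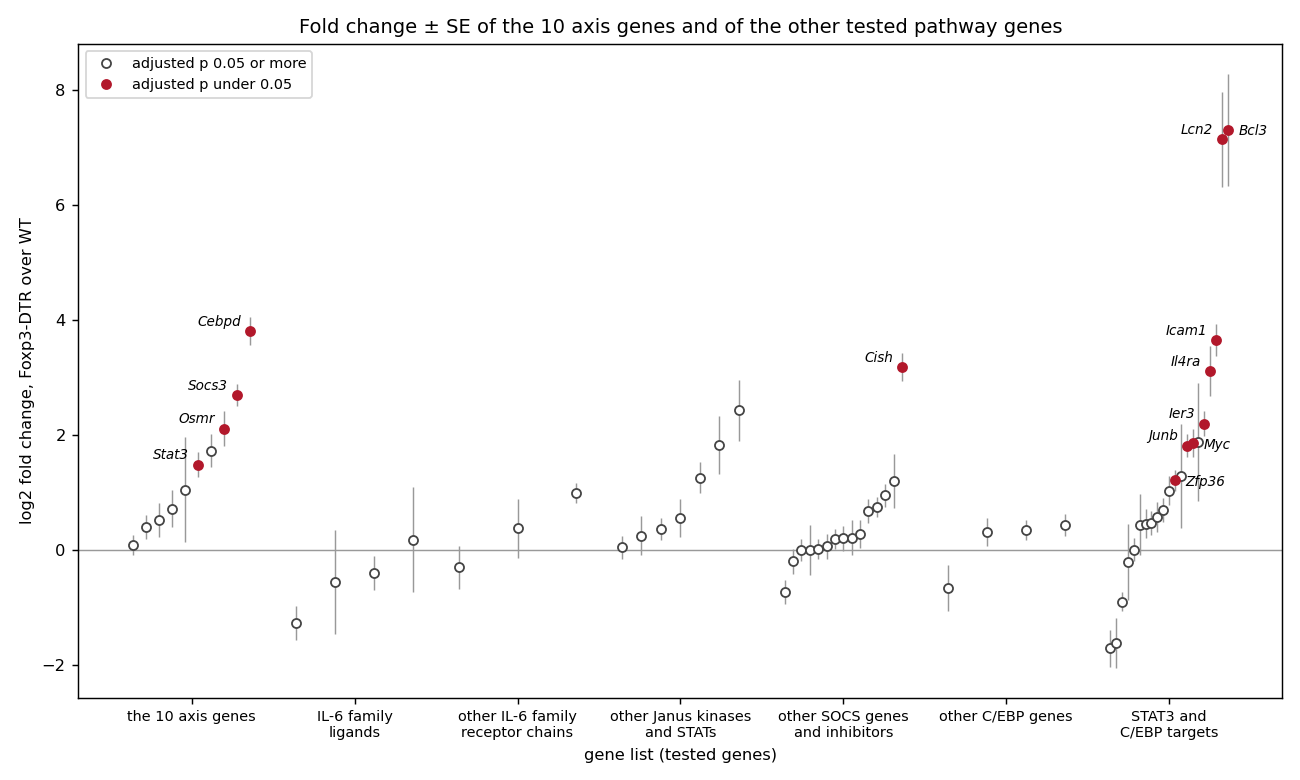
Log2 fold change (Foxp3-DTR over WT) with its SE for the 10 axis genes and the 54 tested genes of 6 pathway lists, each point a gene, filled where the edgeR adjusted p was under 0.05. Filled points lie above 0 in every list that has any, 4 among the axis genes, 1 in the SOCS list (Cish) and 8 among the targets.

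Over the 6 lists together, 9 of 54 tested genes rose and 0 fell in edgeR's test, against 0.820% and 0.426% of all genes tested. At an unadjusted p under 0.05, 19 were higher and 5 lower, against 6.76% and 7.89% of all genes tested. The target list held 8 of the 9. The lists were drawn up with earlier results of these data known, so nothing is read from these counts. The 5 that passed without Foxp3-DTR C were Cish, Junb, Icam1, Il4ra and Ier3. In bulk libraries, fewer cells with a transcript and less transcript per cell cannot be told apart.

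The replicates differed in the same sense for most members. Of the 10 genes 9 were higher in Foxp3-DTR C than in Foxp3-DTR D, and 8 were lower in WT A than in WT C. The differences in log2 between replicates ranged from 0.13 for Socs3 to 0.68 for Lifr among those 9, while the median size over all genes tested was 0.25. In WT, A stood below C by 0.76 for Osmr, 0.70 for Lifr and 0.59 for Il6st, and the median size over all genes tested was 0.34. All members but Il6ra and Cebpb were thus lower in the library of each group that was high in Krt10. Socs3 and Stat3 differed between WT replicates by 0.15 and 0.08.

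For 3 members the genes with the most similar profile were ranked by the root mean square difference of log2(CPM + 0.5), centred over the 4 libraries, among 10732 genes whose mean log2 CPM reached 2. Nearest to Socs3 were Slc4a8 (0.149), Adamts9 (0.154), Ccl27a (0.158) and Deptor (0.195). The chemokine Ccl27a, made by keratinocytes, was at 164 and 140 CPM in Foxp3-DTR and 20.1 and 18.8 CPM in WT. Nearest to Osmr were Man1a (0.105), Tead4 (0.107), Gulo (0.118) and Clec2d (0.144), and its receptor partner Il6st ranked 15 (0.221). The genes nearest to Cebpd were Icam1 (0.137), Serpina3g (0.145), Map3k14 (0.158) and Rasl11a (0.160). Serpina3g belongs to a family of near-identical genes, so its reads are uncertain. With 4 libraries in 2 groups, any gene with a group difference of similar size scores as alike.

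**Figure D4:**
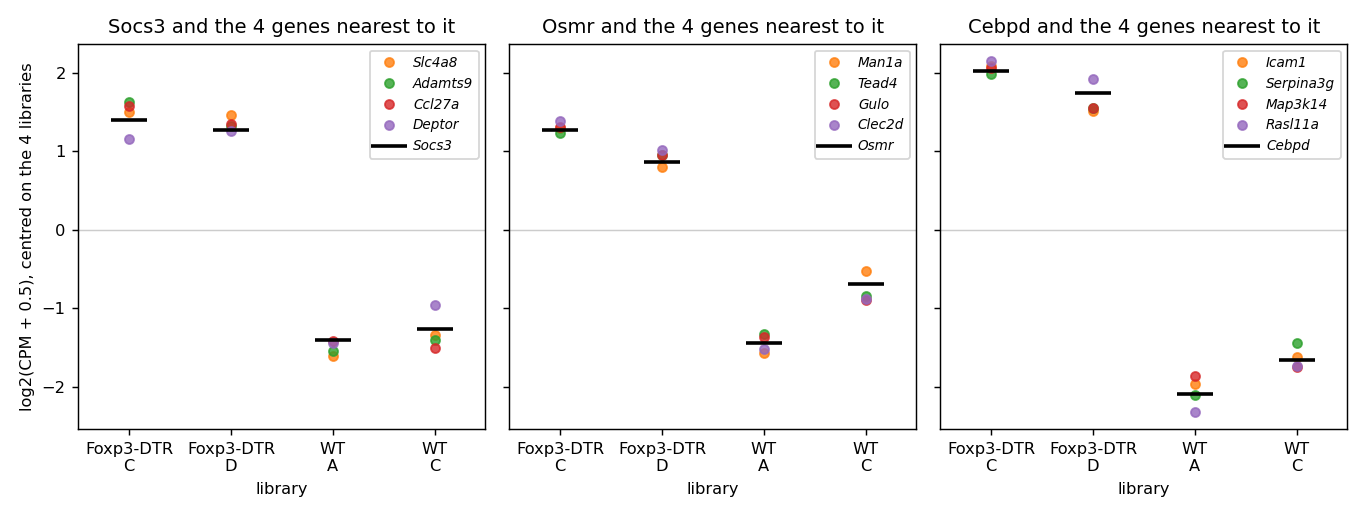
Centred log2(CPM + 0.5) of Socs3, Osmr and Cebpd (bars) and of the 4 genes nearest to each (points) in Foxp3-DTR C and D and WT A and C. The points follow the bars to within 0.105 to 0.195 (root mean square difference), with WT A below WT C for Osmr and for Cebpd.

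Fits with other settings or without a library reuse the libraries on which the members were chosen, so the ranges below are a description. Over 9 fits the log2 fold change of Socs3 ranged from 2.63 to 2.77 and that of Cebpd from 3.61 to 4.05. The range was 1.79 to 2.54 for Osmr, 1.42 to 2.06 for Il6st and 1.28 to 1.67 for Stat3. Lifr ranged from 0.34 to 1.12, Cebpb from 0.24 to 0.89, Jak2 from 0.22 to 0.58 and Jak1 from 0.001 to 0.16. Il6ra, from -0.05 to 2.67, was the 1 member whose sign changed.

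**Figure D5:**
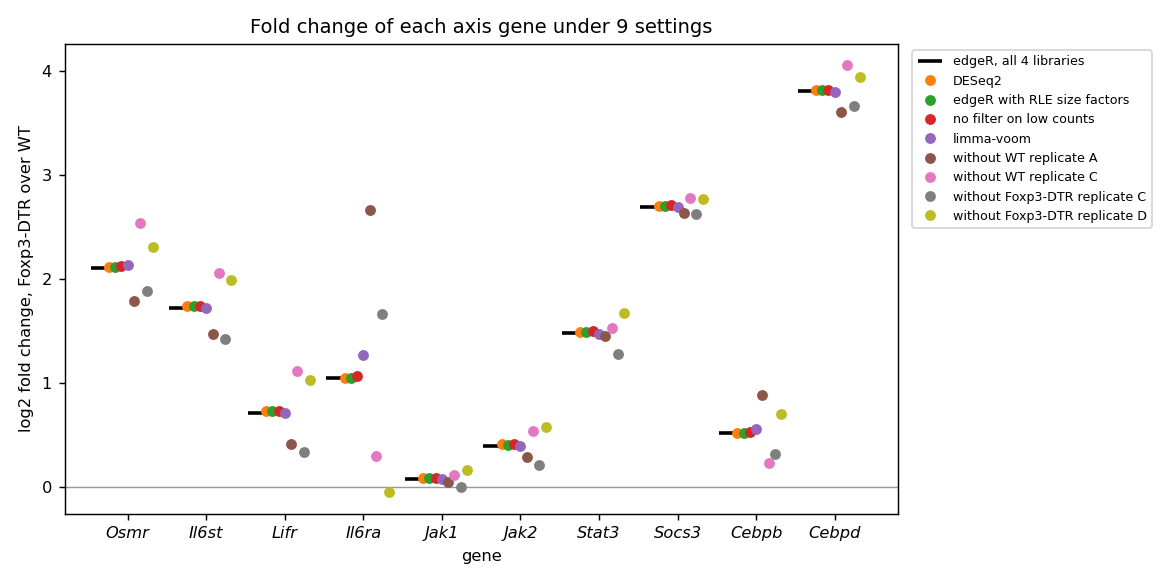
Log2 fold change (Foxp3-DTR over WT) of each axis gene in the fit of all 4 libraries (black bar) and in 8 alternative fits (points). Points lie close to the bar for Socs3 (2.63 to 2.77) and scatter across 0 for Il6ra (-0.05 to 2.67).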

How the data were processed

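RNA was sequenced from 4 libraries of sorted hair follicle stem cells, made with a stranded mRNA kit per the labels' protocols. The deposited values are unnormalized counts of reads per gene symbol. Per the submitters' processing notes, the build was mm10 and the tools were HTSeq 0.6.1, SAMtools 0.1.19.0, TopHat2 2.0.12, Bowtie2 2.1.0.0, and CASAVA 1.8.2. Neither annotation nor strand setting is given in the sources used here. The 5 special rows of the counter held 62.0% to 70.1% of a library's counts, mostly non-unique alignments (51.8% to 61.3%), and stayed out of library sizes and tests. Gene names that look like dates, 27 in all, were not named. The p-values cover only library-to-library spread.

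Counts were tested in R 4.3.3 with edgeR 4.0.16 (filterByExpr, TMM, robust glmQLFit, glmQLFTest, group only), with Benjamini-Hochberg adjustment over 12920 genes and a threshold of 0.05. CPM used TMM library sizes. SEs came from the fold change and its F statistic. Alternatives were DESeq2 1.42.0, RLE size factors, no filter, limma-voom 3.58.1 and leaving out each library. No protein sequences were used here. Gene coordinates and exon lengths are from GENCODE M21 (GRCm38, which mm10 names), and promoters from RefSeq (GRCm38.p6).

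The members and lists were chosen with earlier results of these data known. Named genes were all members, from each list up to 6 that passed and the 2 with the highest mean CPM, the likeness genes, the top marker of each type, and the sex-linked genes, Krt10 and Foxp3. Of the genes this rule takes, 2 are not reported here.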

Additional observations from a re-analysis of the deposited data

How the results depend on the processing

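Counts of calls moved more than signs did. Genes higher and lower in Foxp3-DTR numbered 106 and 55 in the fit described, 489 and 513 with DESeq2, 277 and 252 with no filter on low counts, and 70 and 23 with limma-voom. Leaving out 1 library gave 66 to 203 higher and 14 to 220 lower, with the lowest counts without Foxp3-DTR C and the highest without Foxp3-DTR D. Pathway genes that rose and fell numbered 9 and 0, against 16 and 4 with DESeq2 and 12 and 3 with no filter. Leaving out 1 library gave 5 to 11 that rose and 0 to 2 that fell. Members that passed numbered 4 as described and 2 to 5 when 1 library was left out, and 0 were lower in any of these fits. In the fits with 1 library left out, the lone library is assumed to vary like the other group. Of 152 comparisons of named pathway genes, 135 kept their side of the threshold, 11 passed only under the alternative and 6 no longer passed. The cause of these changes was not tested. No paired analysis was possible because the groups share only 1 replicate letter.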
